A study of Mus musculus with 53 samples.

Results

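The 9 genes described here encode transcription factors that mark cerebellar granule cell progenitors: Atoh1, Barhl1, Barhl2, Pax6, Zic1, Zic2, Zic4, Zic5 and Meis1. They were chosen by symbol and are 9 of 55573 genes in the P2 tables and 9 of 57010 in the P7 matrices. All 9 were found in both and all 9 passed every filter on low counts, so no member is left out below. The cerebella came from mice of 4 groups. Insm1 controls had the genotype Insm1fl/fl and Insm1 mutants were Atoh1Cre; Insm1fl/fl. Tead1/2 controls were Tead1fl/fl;Tead2fl/fl and Tead1/2 mutants carried the same floxed alleles with Atoh1Cre. Insm1 encodes a zinc finger repressor of the neuroendocrine and neuronal lineages, and Tead1 and Tead2 encode the DNA-binding partners of YAP and TAZ. Whole-cerebellum RNA was sequenced at postnatal day 2 (P2) from 4 controls and 4 mutants for Insm1 and from 3 controls and 4 mutants for Tead1/2, each a single pup. Single cells were sequenced at postnatal day 7 (P7) from 2 controls and 3 mutants of each allele, also single pups, with a split-pool barcoding method. Library 1 of each P7 group came from all lobules and the others were dissected without lobules IX and X. Every mutant carries Atoh1Cre and, by its label, no control does, so the presence of Cre and the deletion cannot be told apart. The labels do not say which Atoh1Cre line was used. For these 9 genes each comparison asks whether the identity factors of the progenitors changed with the deletions.

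Granule cells arise at the rhombic lip, spread over the cerebellar surface as the external granule layer, divide there under sonic hedgehog, and then migrate inward as they differentiate. Atoh1, a basic helix-loop-helix activator, is required to form this lineage and is switched off as cells leave the cycle. It works with the homeodomain factors Barhl1 and Barhl2, the paired-box factor Pax6, the Zic zinc finger proteins and the TALE homeodomain cofactor Meis1, several of which persist in postmitotic granule neurons.

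The P2 libraries held 28066643 to 64518751 expected counts, and levels from them are given as CPM, a gene's counts scaled to a fixed library total, after TMM scaling. At P7, 77237 cells were kept, 4662 to 10424 per library at medians of 6661 to 9868 unique molecules (UMIs), and no 2 libraries shared a cell barcode. Insm1 itself fell in Insm1 mutants by 1.91 (adjusted p = 0.0194) on the log2 scale at P2 and by 2.62 (adjusted p = 3.42e-04) in all kept P7 cells. In Tead1/2 mutants Tead2 fell by 1.95 (adjusted p = 7.94e-08) at P7, whereas the gene-level Tead1 count rose by 0.93 (adjusted p = 3.40e-06). At P2 neither changed past the test there, with log2 differences of -0.22 (adjusted p = 0.314) for Tead2 and -0.094 (adjusted p = 0.746) for Tead1. The floxed part of each gene was not looked at separately. A list of 40 skeletal muscle genes was used as markers of the other cell type that these samples hold. At P2 the summed level of those that passed the filter, 37 genes for Insm1 and 36 for Tead1/2, went from 53.3 to 82.7 CPM in the controls to 227 to 369.5 in the mutants of Insm1, and lay at 61.8 to 66.01 and 57.96 to 310.1 in those of Tead1/2. The lowest of these Tead1/2 mutant values, 57.96, belongs to mutant 4, which lay below every Tead1/2 control and stands apart from its group. The P2 comparisons that use it are therefore also given without that library.

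The proximal promoters of 3 members are shown because their transcripts had the largest falls in all kept P7 cells of both mutants. The sequences are RefSeq promoters of build GRCm38.p6, from 250 bases before to 50 after the start site, each read 5′ to 3′ on the gene's own strand. Matches to any of 3 motifs are in capitals: the E-box CAGCTG, the TEAD motif CATTCC, which reads GGAATG on the other strand, and an INSM1-like motif TGNNNGGGG, which reads CCCCNNNCA there. All were searched on both strands. Atoh1 lies on chr6:64728875-64729174 (plus strand), the second of 2 annotated Barhl1 starts on chr2:28912446-28912745 (minus strand) and Barhl2 on chr5:106458117-106458416 (minus strand).
Atoh1: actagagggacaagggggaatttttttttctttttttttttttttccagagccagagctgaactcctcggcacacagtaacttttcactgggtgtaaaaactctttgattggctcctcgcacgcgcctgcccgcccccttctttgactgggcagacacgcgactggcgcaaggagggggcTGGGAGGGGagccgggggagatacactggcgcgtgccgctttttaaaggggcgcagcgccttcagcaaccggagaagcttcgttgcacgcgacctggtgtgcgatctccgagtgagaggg
Barhl1: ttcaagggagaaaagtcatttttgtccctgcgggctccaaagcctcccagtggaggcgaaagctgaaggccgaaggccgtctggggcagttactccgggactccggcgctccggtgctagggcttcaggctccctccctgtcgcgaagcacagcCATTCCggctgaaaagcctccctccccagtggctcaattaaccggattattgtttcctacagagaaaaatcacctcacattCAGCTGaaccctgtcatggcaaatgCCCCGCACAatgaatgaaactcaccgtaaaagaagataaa
Barhl2: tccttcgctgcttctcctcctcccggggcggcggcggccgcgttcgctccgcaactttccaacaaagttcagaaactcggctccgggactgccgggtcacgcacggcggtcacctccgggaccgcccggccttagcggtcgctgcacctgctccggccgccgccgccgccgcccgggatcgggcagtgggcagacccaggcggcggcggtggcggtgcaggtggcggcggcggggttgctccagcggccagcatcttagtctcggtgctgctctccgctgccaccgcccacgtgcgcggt

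In these windows Atoh1 had 1 INSM1-like match, which began 70 bases before the start site. Barhl1 had 1 match of each kind, the E-box 15 bases and the TEAD motif 96 bases before the start and the INSM1-like match beginning at base 11 after it. The Barhl2 window held none of the 3, and the other Barhl1 start, not shown, held 1 E-box match. Across 32851 RefSeq promoters of the same length, the E-box was in 16.3%, the TEAD motif in 14.7% and the INSM1-like motif in 26.4%. Of the 8 members with a promoter in the table, the E-box was found for 1, the TEAD motif for 3 and the INSM1-like motif for 6. Zic2 had no entry. These are matches of letters and no binding data were used. The 4 Zic genes lie in pairs. On the RefSeq annotation of the same build Zic1 (chr9:91358058-91365768) and Zic4 (chr9:91365631-91389351) share 138 bases at their 5′ ends and run in opposite directions, while Zic5 (chr14:122459160-122465658) ends 9725 bases before Zic2 (chr14:122475384-122480328). The bulk kit keeps strand, but whether counting used it is not given in the sources used here, so reads in the shared stretch of Zic1 and Zic4 may have gone to either gene. The other members lie at chr6:64729125-64731245 (Atoh1), chr2:28907680-28917984 (Barhl1), chr5:106452523-106458166 (Barhl2), chr2:105668896-105698410 (Pax6) and chr11:18880428-19019651 (Meis1).

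In control cerebella at P7, Atoh1 and Barhl1 were highest in granule progenitor-like cells, and the other members were spread more widely. Cell classes were named from preset markers that did not include any member, and cells were clustered without the members. Levels by class are class CPM, the gene's UMIs scaled to a fixed UMI total of the class without TMM, given as the median of the 4 control libraries with the lowest and highest. Atoh1 measured 23.4 (22.4 to 32.7) in granule progenitor-like cells against 8.24 (6.57 to 11.4) in granule neuron-like cells, and no library of any other class with 4 control libraries reached the lowest progenitor value. Barhl1, needed for granule cell migration and survival, measured 164 (162 to 177) in progenitor-like and 110.1 (104 to 117) in neuron-like cells, again without overlap. Barhl2 measured 52.2 (45.4 to 59.5) in progenitor-like and 55.5 (49.3 to 62.9) in neuron-like cells, and Pax6 581 (522 to 619) and 588 (543 to 621). For both genes these 2 classes overlapped each other and lay above all other classes with 4 control libraries. Meis1 also overlapped between the granule classes, at 1945 (1911 to 2024) and 1900.4 (1847 to 1991), followed by astroglia-like cells at 1612 (1508 to 1638). Zic1 was highest in granule neuron-like cells at 541 (508 to 625), next to GABAergic interneuron-like cells at 447 (419 to 516). Zic4 had its highest median in meningeal fibroblast-like cells, 229 (221 to 246), followed by astroglia-like cells at 221 (186 to 242) and progenitor-like cells at 212 (201 to 251), with overlapping ranges. Zic2 and Zic5 also overlapped between the leading classes, with medians of 155 (149 to 187) for Zic2 in neuron-like and 69.01 (65.2 to 78.99) for Zic5 in progenitor-like cells. Over the 8 classes with all 4 control libraries, all 7 pairs of neighbours in the order of levels overlapped for each Zic gene, and 4 or 5 of the 7 did for the others.

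Members were also counted in cells that do not come from the granule lineage. Microglia-like, endothelial-like and oligodendrocyte lineage-like cells do not arise from the rhombic lip, and in these 3 classes together the controls still showed 334 (318 to 381) Pax6, 76.7 (68.1 to 86.02) Barhl1, 31.3 (23.1 to 40.5) Barhl2 and 8.54 (7.59 to 9.63) Atoh1 class CPM. Free RNA from broken cells and barcodes that hold more than 1 cell can both give such counts, and the part of either was not tested. The level in these 3 classes is called background here, whatever its source. Astroglia-like cells, with 1.605 (1.102 to 2.09) Atoh1 and 11.8 (6.95 to 17.9) Barhl1, lay below this level. In the mutants this background was lower, with 164 (94.4 to 213) Pax6, 32.9 (17.03 to 46.9) Barhl1, 10.9 (5.05 to 18.98) Barhl2 and 4.05 (0.631 to 7.86) Atoh1 over 6 libraries. This fall in background accompanies every fall within a class given below, and its part was not tested.

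**Figure D1:**
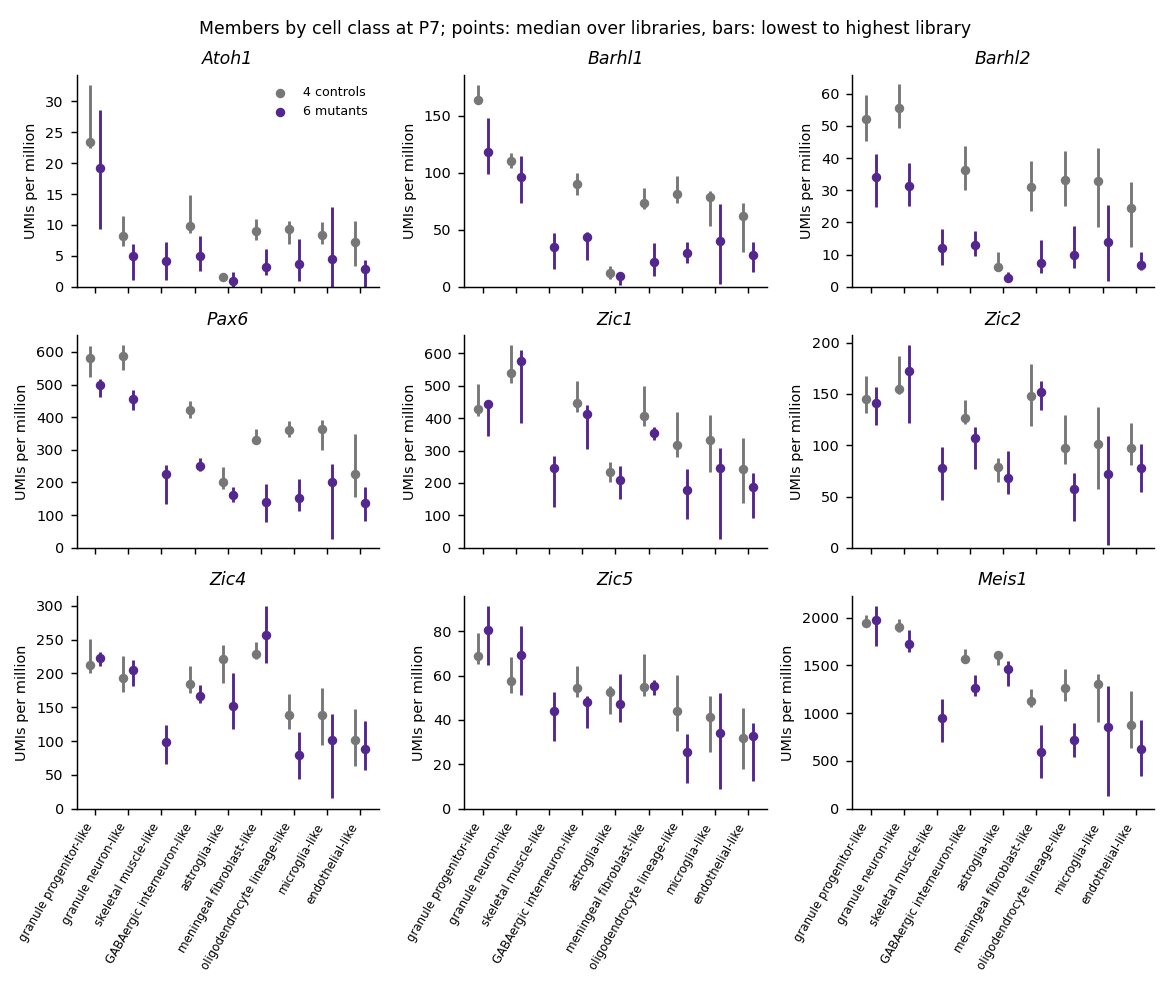
Level of each member (vertical axis, class CPM, shown as UMIs per 1e6 UMIs) in 9 cell classes at P7, for the 4 controls (grey) and the 6 mutants of both alleles (purple). Points are medians over libraries and bars run from the lowest to the highest library; skeletal muscle-like cells are shown for mutants only. Atoh1 and Barhl1 peak in progenitor-like cells, while every member keeps a level above 0 in microglia-like, endothelial-like and oligodendrocyte lineage-like control cells.

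The genes most like a member were sought over the 11 classes of the controls by Pearson's r of log2(class CPM + 1). For Atoh1 they were Pla2g4c (r = 0.967), Bex1 (0.967) and Paxip1 (0.965). For Pax6 they were Plekha6 (0.976), Wrap73 (0.970) and Psme4 (0.961). For Meis1 they were Rps6ka5 (0.934), Myo16 (0.912) and En2 (0.907), the last a homeobox gene of the midbrain and cerebellum. The 11 points share libraries, depth and background, so these values are descriptions.

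At P2, Barhl2 was the 1 member that passed the test in Insm1 mutants, and all 9 members had a lower mean there than in controls. Barhl2 read 10.4, 12.96, 11.99 and 13.5 CPM in the 4 controls and 3.93, 4.23, 8.52 and 5.62 in the 4 mutants. Every mutant lay below every control, and the log2 difference was -1.14 (SE 0.22, adjusted p = 0.0499), a 2.203-fold fall. With 1 member called lower of 9, the background was 0.209% of 19582 genes called lower. The call sits at the threshold: 7 of the 8 fits that left out a library lost it (all but the one without mutant 3), with log2 differences of -1.41 to -1.001. It was also lost with RLE size factors (adjusted p = 0.0517) and when all 15 libraries shared a fit (0.0536).

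Barhl1, the paralogue of Barhl2, read 75.2, 57.9, 57.02 and 71.1 CPM in Insm1 controls and 36.1, 48.2, 48.4 and 46.2 in mutants. Its groups did not overlap either, and its log2 difference of -0.55 (SE 0.12, adjusted p = 0.0909) passed the threshold with DESeq2 (adjusted p = 0.00445, in a fit that called 0.659% of genes lower), without the filter (0.00955) and with 15 libraries in the fit (0.0397). Pax6, which is needed for granule cell migration and polarity, read 199, 201, 189 and 205 CPM in controls and 169.6, 173, 181 and 169 in mutants. The groups were again separate, but the log2 difference was small, -0.20 (SE 0.059, adjusted p = 0.295), and of the settings tried only DESeq2 called it (adjusted p = 0.0279). Atoh1 read 22.8, 21.8, 26.8 and 23.5 CPM in controls and 19.9, 16.5, 22.6 and 17.4 in mutants. Mutant 3 reached into the control range, and the difference of -0.31 (SE 0.11, adjusted p = 0.396) did not pass. The 4 Zic genes and Meis1 had log2 differences from -0.23 (Zic2) to -0.036 (Zic1), none past the test. Of these, Meis1 alone had separate groups, 187, 183, 187 and 196 CPM in controls and 173, 183, 168 and 173 in mutants, with a log2 difference of -0.11 (SE 0.059, adjusted p = 0.618). Its lowest control, 183.16, and its highest mutant, 183.07, were nearly equal. Zic1 read 734, 699, 713 and 701 CPM in controls and 670.3, 691, 732 and 684 in mutants, so the groups overlapped. The median log2 difference of the 9 members was -0.20, against 0.0061 for all genes tested. With Barhl2, 4 of 9 members thus had all mutants below all controls, as had 3.02% of the genes tested. In whole tissue, fewer cells of a type and less RNA per cell cannot be told apart.

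In Tead1/2 mutants no member passed the test at P2, where edgeR called 0% of 20247 genes and 4052 genes had an unadjusted p under 0.05, 2 members among them. DESeq2 called 4.74% of genes and 0 of the 9 members. Barhl2 again had the largest difference. It read 7.46, 10.3 and 9.88 CPM in Tead1/2 controls and 4.01, 6.23, 3.25 and 7.62 in mutants, and the last of these, mutant 4, reached into the control range. The log2 difference of -0.80 (SE 0.25, adjusted p = 0.136) grew to -1.01 without mutant 4 and then passed (adjusted p = 0.0427), in a fit that called 1.22% of genes lower. It also passed without the filter on low counts (1.95e-04). Zic5, by contrast, was higher on average, with 96.6, 108 and 90.4 CPM in controls and 112, 114, 116 and 107 in mutants. Mutants 1, 2 and 3 exceeded all controls, and the log2 difference was 0.19 (SE 0.063, adjusted p = 0.15). Atoh1 read 24.1, 30.1 and 26.4 CPM in controls and 23.3, 23.9, 23.7 and 26.7 in mutants, a difference of -0.14 (SE 0.081, adjusted p = 0.364) with overlapping groups. Barhl1 (-0.20), Pax6 (-0.10), Zic2 (0.11), Zic1, Zic4 and Meis1 did not pass either. The median of the members was -0.027 and that of all genes -0.0075. Without mutant 4 the differences were 0.21 for Zic5 (adjusted p = 0.132), -0.18 for Atoh1 (0.234), -0.29 for Barhl1 (0.0519), -0.14 for Pax6 (0.221) and 0.13 for Zic2 (0.274). Zic1, Zic4 and Meis1 lay at -0.018, -0.036 and -0.019, and Barhl2 was the 1 member called. The medians of members and of all genes were then -0.036 and -0.0077.

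No member passed the test of a difference between the deletions at P2. Insm1 itself, deleted in the Insm1 mutants only, did not pass this test either, at 2.41 on the log2 scale (adjusted p = 0.131). The interaction test called 0% of 20837 genes with edgeR, 1435 of them and 2 members had an unadjusted p under 0.05, and DESeq2 called 0.0816% of genes and 0 of the 9. The 2 members with an unadjusted p under 0.05 were Zic2 and Zic5, with Tead1/2 effects minus Insm1 effects of 0.35 (SE 0.13, adjusted p = 0.613) and 0.34 (SE 0.12, adjusted p = 0.613). Barhl1 and Barhl2 had differences of the same size with larger errors, 0.35 (SE 0.17, adjusted p = 0.732) and 0.34 (SE 0.37, adjusted p = 0.921). Without Tead1/2 mutant 4 the test again called 0% of genes and 0 members, with differences of 0.36 for Zic2, 0.36 for Zic5, 0.26 for Barhl1 and 0.13 for Barhl2. The 2 sets of libraries carry different batch labels, and each effect was taken within its own batch.

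**Figure D2:**
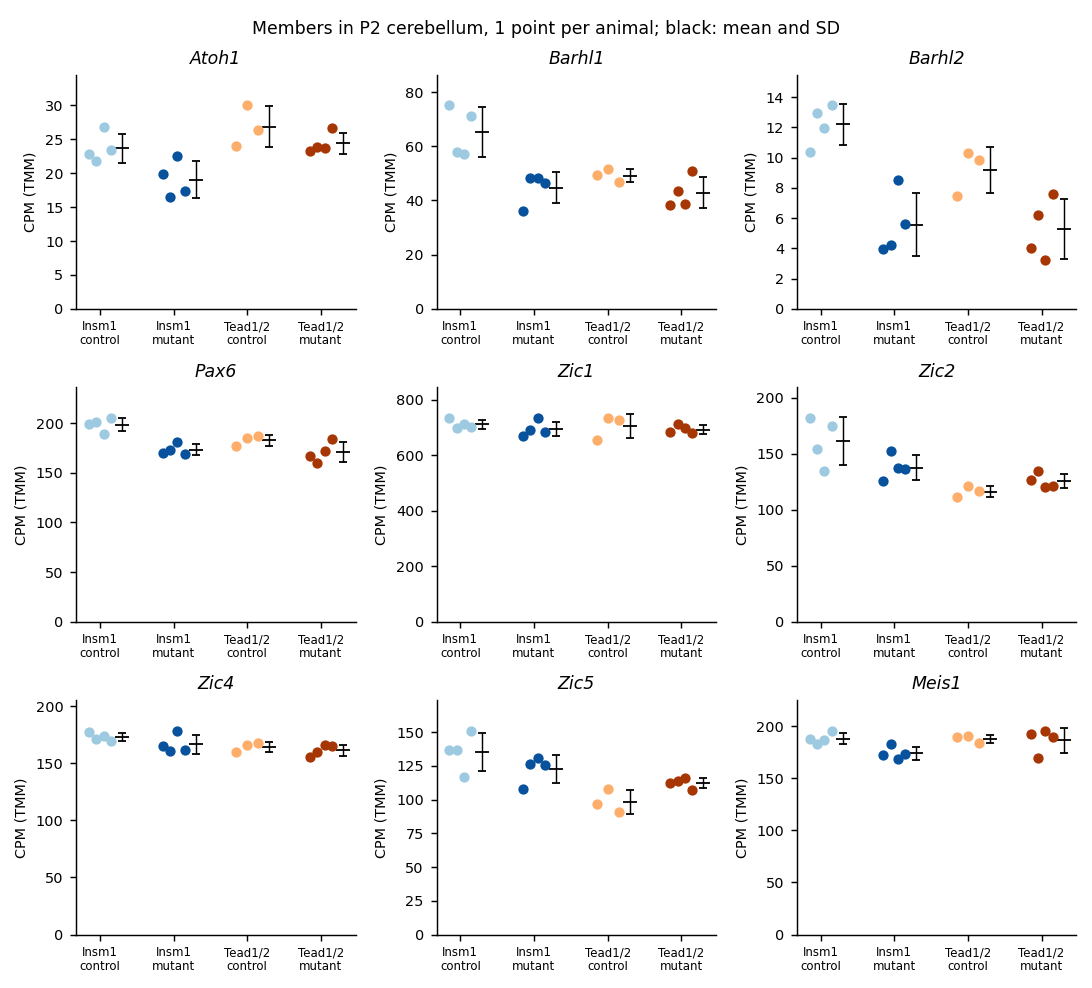
Level of each member (vertical axis, TMM-scaled CPM) in the 15 P2 libraries, 1 point per pup, with the mean and SD of each group in black. Barhl1, Barhl2, Pax6 and Meis1 show separate groups in the Insm1 comparison, while the groups of Atoh1 and the 4 Zic genes overlap there. Of the 4, Barhl2 alone passed the test, and 3.02% of all genes tested separate the same way. The lowest control and highest mutant of Meis1 there are nearly equal, at 183.16 and 183.07 CPM.

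By P7 most members were lower in sums over all kept cells, which for 6 of the 10 libraries come from cerebella without lobules IX and X. In these sums 8 of 9 members were lower in Insm1 mutants, with a background of 15.2% of 24251 genes, and 9 of 9 were lower in Tead1/2 mutants, with a background of 22.6%. Their median log2 difference was -0.46 for Insm1 and -0.78 for Tead1/2, against 0.036 and 0.058 over all genes.

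With Insm1 deletion Atoh1 went from 11.9 and 15.1 CPM to 7.83, 9.58 and 7.37, a log2 change of -0.71 (SE 0.20, adjusted p = 0.0185). In Tead1/2 libraries it read 12.5 and 11.7 in controls and 2.69, 4.71 and 3.83 in mutants, a change of -1.68 (SE 0.20, adjusted p = 6.62e-05) or a 3.21-fold fall. The groups did not overlap in either allele. With 2 controls and 3 mutants groups separate easily, and the share of all genes that do so at P7 is not given here. Of the Insm1 fits that left out a library, those without control 2 (0.136), mutant 1 (0.0545) and mutant 3 (0.0653) lost the call for Atoh1.

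The Barhl pair fell in both alleles. With Insm1 deletion Barhl1 went from 108 and 108 CPM to 56.6, 62.8 and 52.1, and with Tead1/2 deletion from 104 and 112 to 34.9, 42.99 and 38.6. Its log2 changes were -0.91 (SE 0.093, adjusted p = 4.71e-05) and -1.47 (SE 0.093, adjusted p = 9.30e-07). Barhl2 went from 50.9 and 45.4 CPM to 23.4, 18.2 and 13.8 without Insm1 and from 37.7 and 38.5 to 13.4, 12.8 and 15.9 without Tead1/2. Its log2 changes were -1.38 (SE 0.17, adjusted p = 2.02e-04) and -1.44 (SE 0.18, adjusted p = 7.99e-05), with no overlap in any of these comparisons.

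Pax6 went from 509 and 427 CPM to 319, 292 and 274 with Insm1 deletion and from 471 and 522 to 230.1, 232 and 232 with Tead1/2 deletion, log2 changes of -0.67 (SE 0.085, adjusted p = 2.05e-04) and -1.10 (SE 0.084, adjusted p = 3.35e-06). The Zic genes had smaller changes. In Insm1 mutants the changes were -0.46 for Zic1, -0.40 for Zic2 and -0.44 for Zic4, all past the test (Zic2 not without control 2, adjusted p = 0.0763), while Zic5 at -0.18 (SE 0.075, adjusted p = 0.103) was the member that was not called. In Tead1/2 mutants they were -0.71, -0.65, -0.50 and -0.47 for Zic1, Zic2, Zic4 and Zic5. For Zic5 the libraries of the Insm1 comparison read 60.4 and 66.1 CPM (controls) and 57.9, 58.2 and 52.03 (mutants), and those of the Tead1/2 comparison 57.3 and 54.9 and 37.3, 42.4 and 41.5. The Meis1 libraries read 1764 and 1726 CPM (controls) and 1381, 1411 and 1318 (mutants) for Insm1, and 1683 and 1684 and 1071, 955 and 919.9 for Tead1/2.

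Meis1 was the 1 member called in the test of a difference between the deletions. It fell by 0.35 on the log2 scale in Insm1 mutants and by 0.78 in Tead1/2 mutants, a difference of -0.43 (SE 0.10, adjusted p = 0.0458) in a test that called 1.41% of 24251 genes lower. The same difference was -0.56 for Barhl1, -0.44 for Pax6 and -0.97 for Atoh1, with adjusted p of 0.0537, 0.0809 and 0.0936 from edgeR, and DESeq2 called 4 members among 4.71% of genes called lower. The Meis1 call was lost in 8 of the 10 fits that left out a library and kept in those without Tead1/2 mutant 1 (0.0162) and Tead1/2 mutant 3 (0.0426). These fits held no term for dissection, and the count of members called with a block for dissection is given in the last section.

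The makeup of the libraries moved with these falls, and its part was not tested. Granule progenitor-like cells made up 27.1 to 27.6% of control and 18.3 to 23.4% of mutant cells in the Insm1 set, and 35.5 to 36.6% and 16.5 to 23.6% in the Tead1/2 set. For granule neuron-like cells the shares were 27.04 to 33.2% (controls) and 15.4 to 24.5% (mutants) in the Insm1 set, and 22.5 to 26.6% and 12.8 to 16.5% in the Tead1/2 set. Cluster 16, with Cenpf, Aspm and Top2a among its leading genes, was left unnamed, so its cells were in neither class nor in the tests within them. It held 582 control and 87 mutant cells in the Insm1 set, and 712 and 225 in the Tead1/2 set. Unnamed cells made up 10.4 to 14.7% (controls) and 11.6 to 21.5% (mutants) in the Insm1 set, and 8.27 to 8.78% and 8.35 to 13.6% in the Tead1/2 set. Skeletal muscle-like cells made up 12.4 to 14.3% of cells in Insm1 mutants and 20.8 to 28.1% in Tead1/2 mutants, with no more than 0.04797% in any control. These shares leave out unnamed clusters 9, led by Myog, and 7, which had 38 of 40 muscle markers but was led by Mobp. Cluster 9 held 467 Insm1 and 407 Tead1/2 mutant cells, and 7 and 9 control cells. Cluster 7 held 957 and 1447 mutant cells, and 228 and 144 control cells. The summed level of the 40 muscle genes was 97.8 to 115 and 86.98 to 99.6 CPM in the 2 control groups, 7042 to 8540.4 in Insm1 mutants and 15646 to 25996 in Tead1/2 mutants.

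**Figure D3:**
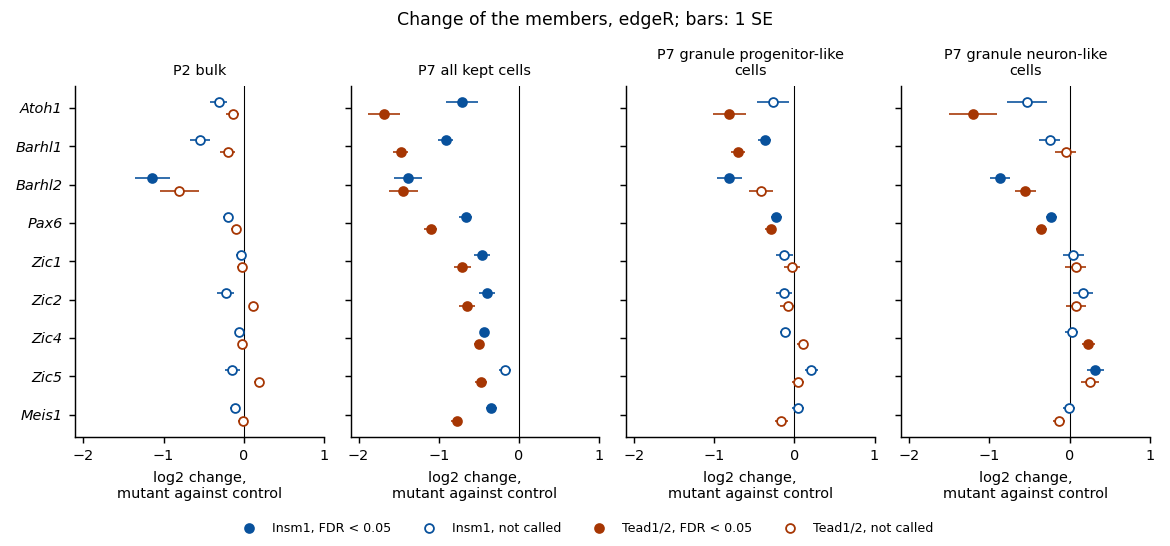
Log2 change of each member, mutant against control, in P2 tissue, in all kept P7 cells, in granule progenitor-like and in granule neuron-like P7 cells, for Insm1 (blue) and Tead1/2 (orange). Bars are 1 standard error and filled points passed an adjusted p of 0.05. All points but Zic5 for Insm1 are filled in the sums over all cells. Within the granule classes the Zic genes and Meis1 lie on both sides of 0, and of these only Zic5 for Insm1 and Zic4 for Tead1/2 in neuron-like cells are filled.

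Within granule progenitor-like cells, Barhl1 and Pax6 fell in both mutants, Barhl2 in Insm1 mutants and Atoh1 in Tead1/2 mutants, while the Zic genes and Meis1 did not pass the test in either direction. In Insm1 mutants 3 of 9 members were called lower, with a background of 8.72% of 15636 genes. Barhl2 read 57.2 and 60.7 CPM in controls and 40.4, 34.5 and 24.5 in mutants, a log2 change of -0.81 (SE 0.15, adjusted p = 0.00188). Barhl1 read 163 and 181 and 124, 148 and 126, a change of -0.37 (SE 0.084, adjusted p = 0.00673). Pax6 read 587 and 532 and 500.01, 479.9 and 458, a change of -0.22 (SE 0.069, adjusted p = 0.0367). All mutants lay below all controls for each of the 3, beside which no share over all genes is given. The Pax6 call was lost without control 1 (0.277), mutant 2 (0.0884) or mutant 3 (0.112), and the Barhl1 call without control 2 (0.0901). With Scrublet's own doublet threshold both were lost (adjusted p = 0.101 and 0.143), which left Barhl2. Atoh1 read 24.5 and 33.3 CPM in controls and 22.03, 28.7 and 20.5 in mutants, so the groups overlapped and its difference of -0.26 (SE 0.20, adjusted p = 0.436) did not pass. Zic5 was higher on average (71.2 and 80.5 against 91.8, 87.1 and 84.5), with a log2 difference of 0.21 (SE 0.081, adjusted p = 0.0887).

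In Tead1/2 mutants 3 members were also called lower in progenitor-like cells, with a background of 9.52%, and this time Atoh1 was one of them. Atoh1 read 23.01 and 22.8 CPM in controls and 9.33, 17.1 and 12.6 in mutants, a log2 change of -0.81 (SE 0.21, adjusted p = 0.0124). Its call was lost without control 1 (0.0713) or control 2 (0.0583). Barhl1 read 167 and 167 and 97.9, 109.9 and 100.2, a change of -0.70 (SE 0.083, adjusted p = 3.89e-05). Pax6 read 592 and 630.3 and 496, 484 and 513, a change of -0.30 (SE 0.068, adjusted p = 0.00673), which did not pass without control 2 (0.0657), so that Barhl1 was then the 1 member called. Barhl2, at 48.6 and 46.3 and 33.6, 31.95 and 40.9 CPM, had separate groups and a difference of -0.42 (SE 0.15, adjusted p = 0.0659) that edgeR did not call and DESeq2 did (0.0316). Meis1 read 2019.7 and 1948 CPM in controls and 1927, 1714 and 1682 in mutants, a difference of -0.16 (SE 0.077, adjusted p = 0.17). Zic1, Zic2, Zic4 and Zic5 had differences of -0.031, -0.082, 0.10 and 0.046. No member passed the test of a difference between the deletions in these cells with edgeR, where 1.48% of genes were called, 2 members had an unadjusted p under 0.05 and DESeq2 called 2.79% of genes and 0 members. The Atoh1 difference between deletions was -0.55 (SE 0.29, adjusted p = 0.541), so its call in 1 allele and not in the other is not shown to be a difference.

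Background and makeup moved with these values too. Barhl2 in microglia-like, endothelial-like and oligodendrocyte lineage-like cells together was 39.01 (37.5 to 40.5) class CPM in Insm1 controls and 12.9 (12.6 to 18.98) in mutants, and 24.1 (23.1 to 25.02) and 8.604 (5.05 to 9.29) in the Tead1/2 groups. For Barhl1 the same medians were 85.3 and 41.1 for Insm1, and 68.4 and 23.0002 for Tead1/2, and for Pax6 365 and 196, and 319 and 128. Atoh1 there was 8.097 in Tead1/2 controls and 2.47 in Tead1/2 mutants. The sum over the 34 muscle genes tested in progenitor-like cells was 97.9 to 101 and 88.5 to 107 CPM in controls, 288 to 358 in Insm1 mutants and 462 to 745 in Tead1/2 mutants. The part of either in the result was not tested.

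The progenitor-like class also lay in different clusters by genotype. Cluster 17 held 72.4% of it in Insm1 controls and 70.2% in Tead1/2 controls, but 6.33% and 4.68% in the mutants. Clusters 3 and 28 together held most of it in mutants, with 50.3% and 24.6% for Insm1 and 18.9% and 46.8% for Tead1/2, and at most 0.124% in controls. Clusters 12, with Otx2 among its leading genes, and 17 held cells of all groups. Within cluster 12, Barhl1 went from 165 (154 to 176) to 121 (90.1 to 128) class CPM with Insm1 deletion and from 165 (164 to 165) to 125 (113 to 126) with Tead1/2 deletion. In cluster 17, Barhl1 was at 170.2 (163 to 177) in Insm1 controls and 223 (148 to 239.6) in the 258 mutant cells there, a higher median with overlapping ranges, and at 163 (163 to 164) and 111 (74.003 to 113) for Tead1/2, without overlap. Barhl2 in cluster 12 overlapped in both alleles, at 61.6 (59.8 to 63.4) and 45.2 (39.8 to 64.1) in Insm1 controls and mutants and 47.4 (42.3 to 52.5) and 53.9 (50.6 to 61.6) in Tead1/2 controls and mutants. In cluster 17 Barhl2 was lower without overlap for Insm1, at 57.6 (56.2 to 58.96) in controls and 47.6 (21.4 to 49.3) in mutants, and overlapped for Tead1/2, at 46.3 (43.9 to 48.6) in controls and 52.9 (33.4 to 56.6) in mutants. Pax6 was lower without overlap in cluster 12 for Tead1/2, at 647 (632 to 663) in controls and 529 (524 to 566) in mutants. It overlapped in cluster 12 for Insm1, at 622 (578 to 666) in controls and 509 (486 to 607) in mutants, and in cluster 17 for both alleles, with medians of 541 and 494 for Insm1 and 589.9 and 552 for Tead1/2. Atoh1 was lower without overlap for Tead1/2 in both clusters, at 23.7 (22.6 to 24.9) in controls and 16.1 (9.27 to 20.1) in mutants in cluster 12 and 22.2 (21.9 to 22.6) in controls and 8.09 (6.34 to 11.1) in mutants in cluster 17, where each mutant library had 2 to 11 Atoh1 UMIs. For Insm1 Atoh1 overlapped in both, with medians of 27.3 and 18.9 in cluster 12 and 28.7 and 25.7 in cluster 17. The lowest median Barhl2 and Pax6 levels of mutants among clusters 3, 12, 17 and 28 were in cluster 3, with Barhl2 at 28.8 (20.05 to 31.9) and 16.5 (11.5 to 17.96) and Pax6 at 398 (394 to 412) and 344 (313 to 353) in Insm1 and Tead1/2 mutants. Cluster 28 held Pax6 at 597 (592 to 613) and 563 (546 to 565) in these mutants. Clusters were formed from other genes of the same cells, so these are levels without a test. How many of all genes separate the same way within a cluster was not looked at.

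In sums over granule neuron-like cells Barhl2 and Pax6 were lower in both alleles, while the class lay in other clusters in mutants than in controls. With Insm1 deletion 2 members were called lower, with a background of 10.6% of 15190 genes, and 1 was called higher, with a background of 14.8%. With Tead1/2 deletion the counts were 3 lower (background 12.1%) and 1 higher (15.6%). Barhl2 went from 60.4 and 58.96 to 38.97, 32.4 and 25.5 CPM and from 49.2 and 48.2 to 29.97, 31.8 and 37.96, log2 changes of -0.87 (SE 0.13, adjusted p = 1.77e-04) and -0.55 (SE 0.13, adjusted p = 0.00654). Pax6 went from 563 and 527 to 485, 464 and 445 and from 580.3 and 607 to 437, 485 and 474, changes of -0.23 (SE 0.071, adjusted p = 0.0299) and -0.35 (SE 0.071, adjusted p = 0.00205). Clusters 1, 11 and 13 held cells of all groups. In clusters 11 and 13 the median of Barhl2 was higher in mutants. For Insm1 it was at 62.8 (62.5 to 63.1) in controls and 67.9 (64.7 to 79.7) in mutants in cluster 11, and at 64.8 (62.96 to 66.7) and 73.3 (42.5 to 99.4) class CPM in cluster 13. For Tead1/2 the same levels were 46.99 (44.8 to 49.2) and 68.5 (41.9 to 72.9) in cluster 11, and 51.4 (48.9 to 53.9) and 78.1 (58.5 to 100.5) in cluster 13. In cluster 1, which held few control cells (101 and 109), Barhl2 overlapped for Insm1, at 31.8 (11.8 to 51.8) in controls and 30.95 (22.3 to 31.1) in mutants, and was lower without overlap for Tead1/2, at 47.6 (38.4 to 56.9) in controls and 23.7 (20.1 to 25.9) in mutants. Clusters 1 and 24 held most mutant cells of the class, and Barhl2 in cluster 24 was at 21.3 (12.1 to 24.8) in Insm1 and 27.8 (19.3 to 28.1) in Tead1/2 mutants. Pax6 within clusters 11 and 13 overlapped between controls and mutants except in cluster 13 for Tead1/2, where it was at 631 (608 to 655) and 576 (549.5 to 581). In cluster 1 it was at 355 (306 to 403) in controls and 411 (404 to 419) in mutants for Insm1, higher without overlap, and overlapped for Tead1/2, at 368 (321 to 415) in controls and 394 (299 to 397) in mutants. These cluster levels carry no test. Barhl1, at -0.25 (SE 0.13, adjusted p = 0.196) and -0.048 (SE 0.13, adjusted p = 0.833), did not pass here. The calls higher were Zic5 in Insm1 mutants at 0.32 (SE 0.11, adjusted p = 0.0419) and Zic4 in Tead1/2 mutants at 0.23 (SE 0.081, adjusted p = 0.0489). Both were lost with DESeq2 (0.0527 and 0.0585) and in 4 of the 5 fits that left out a library, as was the Pax6 call for Insm1. Zic5 kept its call without Insm1 mutant 3, Zic4 without Tead1/2 mutant 1 and Pax6 without Insm1 mutant 1. Without Tead1/2 control 1, Pax6 was the 1 member still called for Tead1/2, with Barhl2 at -0.52 (0.0557) and Atoh1 at -1.02 (0.0827). The sum over the 30 muscle genes tested in neuron-like cells was 71.8 to 72.9 and 80.9 to 100.3 CPM in controls, 192 to 226 in Insm1 mutants and 306 to 495 in Tead1/2 mutants, and its part was not tested.

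Atoh1 was also called lower in neuron-like cells of Tead1/2 mutants, from 8.02 and 6.42 to 1.22, 4.44 and 3.42 CPM, a log2 change of -1.20 (SE 0.30, adjusted p = 0.00846), but its direction in this class depended on how cells were kept. With doublets kept it was 0.83, and with a minimum of 3000 UMIs per cell it was 1.31 and called (0.0404). For Insm1 the same settings turned -0.53 into 1.97 and 2.38, both called. In both settings a cluster of mostly control cells, led by Nrg1, was left unnamed and so was outside this class. The class lay mostly in clusters 11, 13 and 10 in controls and in clusters 1 and 24 in mutants, with cluster 1 holding 57.6% of it in Insm1 mutants and cluster 24 50.9% in Tead1/2 mutants. No member passed the test of a difference between the deletions in these cells: edgeR called 0.52% of genes, 0 members had an unadjusted p under 0.05 and DESeq2 called 1.28% of genes and 0 of the 9.

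Most members were found in a larger share of cells with muscle transcripts than of microglia-like, endothelial-like and oligodendrocyte lineage-like cells. Of these members, only Pax6 in Insm1 mutants was also above GABAergic interneuron-like cells, as given below. In class CPM over the 6 mutants of both alleles, every member overlapped between skeletal muscle-like cells and the 3 classes used above as background. Pax6 was at 225 (134 to 253) and 164 (94.4 to 213), and Zic1 at 245 (125 to 282) and 196 (80.4 to 254). To set cells of unequal depth side by side, each cell was thinned to 2000 UMIs, and cells with UMIs of at least 3 of the 40 muscle genes were called cells with muscle transcripts. They made up 16.1%, 18.4% and 20.9% of cells in the Insm1 mutants and 26.7%, 40.5% and 27.2% in the Tead1/2 mutants, against no more than 0.425% in any control. The background was read in microglia-like, endothelial-like and oligodendrocyte lineage-like cells of the same libraries, called non-lineage here, leaving out any with muscle transcripts. For 6 of the 9 members, Pax6, Zic1, Zic2, Zic4, Zic5 and Meis1, the share of cells with a UMI was above the non-lineage share in all 6 mutant libraries. The same held for 26.6% of 12538 genes, those found in at least as large a share of these cells as the least found member, muscle genes left out. Shares are given as the median of 3 libraries with the lowest and highest, are a description without a test, and depend on a gene's level and length, so they are not compared between genes.

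Pax6 UMIs were in 34.5% (34.2 to 34.8) of cells with muscle transcripts in Insm1 mutants, between 17.1% (16.03 to 21.7) in non-lineage and 57.3% (56.5 to 59.1) in progenitor-like cells. In Tead1/2 mutants the same shares were 29.5% (24.5 to 31.2), 8.598% (6.54 to 10.5) and 60.7% (58.04 to 62.6). Meis1, which is also active in other tissues, was in 78.7% (77.9 to 79.2) against 48.8% (43.2 to 53.3) of non-lineage cells with Insm1 deletion, and in 67.6% (67.1 to 73.95) against 30.5% (27.1 to 32.2) with Tead1/2 deletion. Zic1 was in 37.7% (36.5 to 38.1) against 21.2% (20.8 to 23.9), and in 30.02% (21.4 to 31.5) against 12.5% (6.54 to 13.9). GABAergic interneuron-like cells, another cerebellar class, had Zic1 in 52.6% and 56.02% and Pax6 in 26.1% and 28.1% of cells, so the muscle-transcript shares were below that class for Zic1, and for Pax6 they were above it in Insm1 mutants and overlapped it in Tead1/2 mutants. Zic4 was in 19.7% and 15.01% of cells with muscle transcripts in Insm1 and Tead1/2 mutants, Zic2 in 16.1% and 12.4%, and Zic5 in 8.22% and 6.85%. Their non-lineage shares were 8.83% and 6.83% for Zic4, 9.93% and 4.83% for Zic2, and 2.51% and 2.51% for Zic5. In GABAergic interneuron-like cells the medians were 25.03% and 26.03% for Zic4, 16.03% and 16.1% for Zic2, 8.45% and 6.85% for Zic5, and 78.7% and 78.7% for Meis1. The ranges of these 4 overlapped those of cells with muscle transcripts in Insm1 mutants, while in Tead1/2 mutants Zic4, Zic2 and Meis1 were lower in cells with muscle transcripts, without overlap.

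Atoh1, Barhl1 and Barhl2 did not exceed the non-lineage share in all 6 mutant libraries. Atoh1 was in 1.36% (1.05 to 1.37) and 0.558% (0.314 to 0.751) of cells with muscle transcripts, against 0.457% (0.285 to 1.13) and 0.251% (0 to 0.589) of non-lineage and 4.78% (3.18 to 5.26) and 2.76% (1.56 to 2.88) of progenitor-like cells. Barhl1 was in 5.98% (5.44 to 6.22) and 4.36% (2.77 to 5.61), against 3.704% (2.51 to 6.09) and 2.002% (1.31 to 2.01) of non-lineage and 22.4% and 18.04% of progenitor-like cells. Barhl2 was in 1.99% and 1.53%, against 1.58% and 0.654%. A UMI of at least 1 of the 9 members was found in 90.1 to 92.1% of muscle-transcript cells in Insm1 mutants and 79.5 to 87.04% in Tead1/2 mutants. In non-lineage cells it was found in 53.7 to 61.3% and 34.6 to 43.4%. In GABAergic interneuron-like cells the shares were 90.7 to 93.6% and 91.6 to 94.9%. Muscle-transcript cells thus overlapped that class in Insm1 mutants and lay below it in Tead1/2 mutants.

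All 9 members had a lower median share in cells with over 10 muscle genes than in cells with 3 to 5, in both mutants. The same held for 56% of the 12538 genes. Pax6 was in 40.1%, 38.7% and 25.9% of Insm1 mutant cells with 3 to 5, 6 to 10 and over 10 muscle genes, and in 44.8%, 35.7% and 16.7% of Tead1/2 mutant cells. Meis1 went from 82.5% to 71.8% and from 78.9% to 61.1% between the first and last of these. Barhl1 went from 7.85% to 3.37% and from 8.35% to 2.74%. After thinning, muscle UMIs take the place of others within the fixed total, so the 2 counts are not independent. By cluster, the early muscle-like cluster led by Myog and named as muscle held Pax6 in 36.9% and 38.2% of cells. The sarcomeric cluster led by Neb held it in 24.2% and 15.7%. In class CPM, Pax6 in the early cluster was 319 (296 to 348) in Insm1 and 306 (254 to 322) in Tead1/2 mutants. In the sarcomeric cluster Pax6 was 207 (194 to 223) and 127 (105 to 167). The non-lineage classes together held 196 (190 to 213) and 128 (94.4 to 137), which overlapped the sarcomeric cluster only. Before thinning, cells with muscle transcripts were deeper, at library medians of 12006 to 20048 UMIs against 6814 to 10650 in non-lineage cells, and without thinning all 9 members exceeded the non-lineage share. Only the highest 4% of doublet scores per library were removed, and the part of doublets in these shares was not tested beyond keeping them all, which left the count at 6 of 9.

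**Figure D4:**
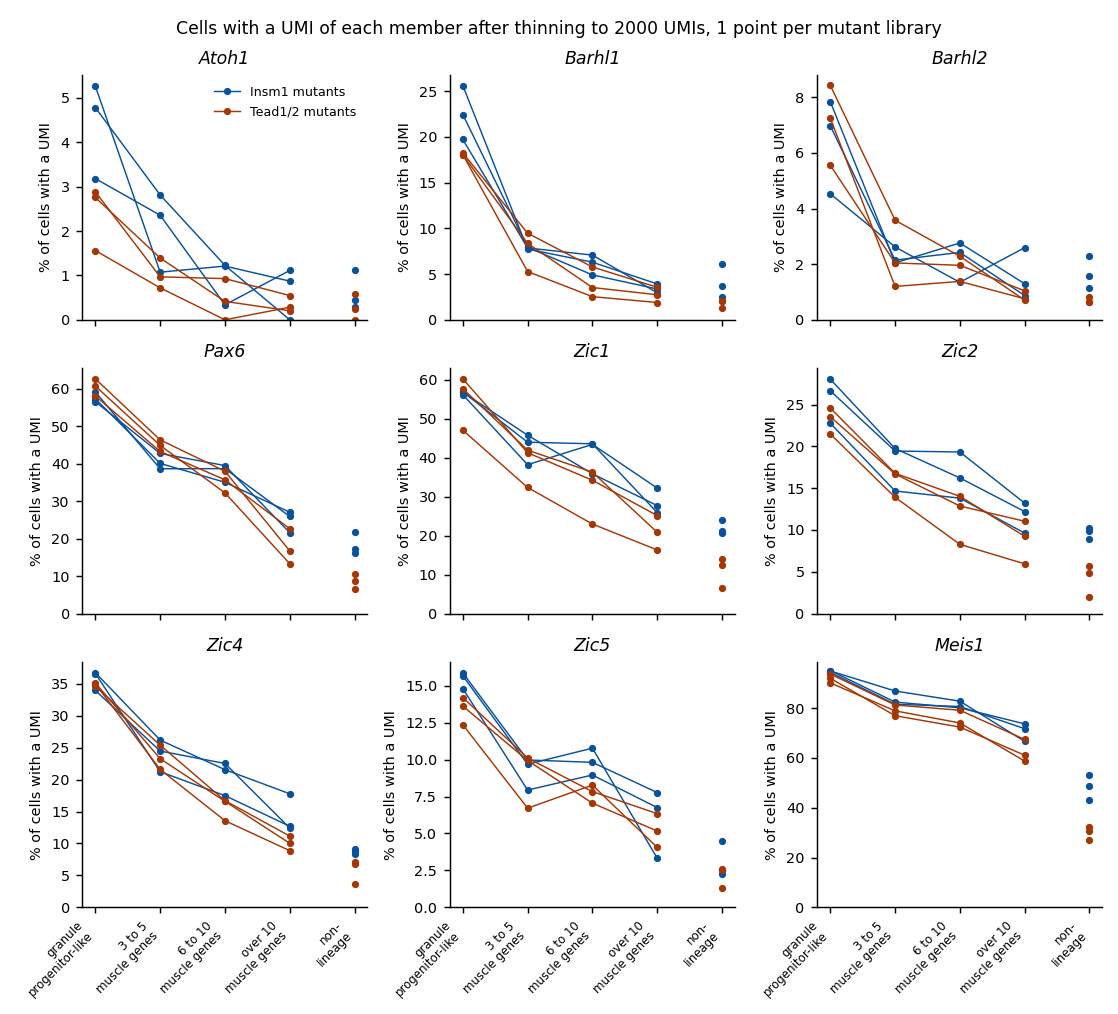
Share of cells with at least 1 UMI of each member after thinning to 2000 UMIs (vertical axis, percent), in granule progenitor-like cells, in cells with 3 to 5, 6 to 10 and over 10 muscle genes, and in non-lineage cells, 1 point for each of the 6 mutant libraries and lines joining points of a library. The median of each member is lower with over 10 muscle genes than with 3 to 5, and that of Pax6, the Zic genes and Meis1 stays above the non-lineage median.

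The companion genes of these factors, 33 in all, were followed in the same fits: dimer partners, antagonists, hedgehog genes, rhombic lip and regional factors, and downstream neuronal factors. At P2, 2 of 32 tested were lower in Insm1 mutants and 0 higher, beside 0.209% lower and 0.48% higher over all genes. In Tead1/2 mutants none was called, in a fit that called 0% of all genes. The 2 that fell in Insm1 mutants were Nhlh1, a neuronal helix-loop-helix gene, at -0.89 (adjusted p = 0.0246) and the midbrain-hindbrain gene En1 at -0.56 (adjusted p = 0.0396). In all kept P7 cells 17 of 33 were lower and 3 higher with Insm1 deletion, and 20 lower and 4 higher with Tead1/2 deletion. Over all genes 15.2% were lower and 18.2% higher for Insm1, and 22.6% and 25.8% for Tead1/2. The 3 with the lowest adjusted p were the hedgehog effector Gli1 at -0.84 (adjusted p = 1.97e-05), Nhlh1 at -1.29 (adjusted p = 2.46e-05) and En2 at -0.88 (adjusted p = 3.50e-05) for Insm1. For Tead1/2 these were En2 at -1.27 (adjusted p = 1.46e-06), the proliferation gene Mycn at -1.17 (adjusted p = 1.86e-06) and Gli1 at -0.99 (adjusted p = 3.27e-06).

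In progenitor-like cells 10 of 30 companions were lower and 4 higher in Insm1 mutants, and 9 lower and 7 higher in Tead1/2 mutants. Over all genes the shares were 8.72% and 10.7% for Insm1, and 9.52% and 12.5% for Tead1/2. The Notch target Hes1 rose in both, by 3.51 (adjusted p = 2.52e-06) and 2.52 (adjusted p = 9.56e-06) on the log2 scale. En2 fell in both, at -0.89 (adjusted p = 2.62e-05) and -0.84 (adjusted p = 2.48e-05). The others named by rank were Nhlh1 at -0.87 (adjusted p = 1.65e-04) for Insm1 and Rbfox3, which encodes the neuronal marker NeuN, at -0.78 (adjusted p = 9.11e-05) for Tead1/2. In neuron-like cells the counts were 10 lower and 6 higher of 29 for Insm1, and 14 and 8 for Tead1/2, beside 10.6% lower and 14.8% higher over all genes for Insm1, and 12.1% and 15.6% for Tead1/2. Etv1, a factor of maturing granule neurons, rose in both at 2.04 (adjusted p = 1.26e-08) and 1.45 (adjusted p = 4.40e-07). Nhlh1 fell in both at -0.75 (adjusted p = 4.40e-05) and -0.69 (adjusted p = 1.02e-04), with Gli1 at -1.13 (adjusted p = 3.04e-05) for Insm1 and Gli2 at -1.20 (adjusted p = 1.36e-06) for Tead1/2. Median log2 differences of the companions tested were -0.035 and -0.14 in progenitor-like cells, beside 0.0083 and 0.0066 over all genes. The same control libraries entered the comparisons of every population at P7, so their values are not independent of each other.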

How the data were processed

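The deposited P2 tables hold RSEM expected counts per gene, which the authors made with RSEM 1.3.3, STAR 2.7.9a and Trim Galore on GRCm38.p6 or mm10, per the submitters' processing notes. Both tables hold the samples of the other allele than their names say, and were matched to samples by their column names. The P7 matrices hold UMI counts per gene and cell barcode as the authors deposited them; the aligner is not given in the sources used here, and each library's group was read from its name. ATAC-seq and CUT&RUN samples were not used here. Expected counts were rounded, ERCC spike-ins were dropped, and edgeR 4.0.16 (quasi-likelihood test, TMM, filterByExpr, Benjamini-Hochberg over all genes tested, threshold 0.05, R 4.3.3) was fitted separately to the 8 Insm1 and 7 Tead1/2 libraries and, for the difference, to all 15. At P7, barcodes with at least 1000 UMIs, 500 genes and under 15% mitochondrial UMIs were kept and the highest 4% of Scrublet doublet scores per library removed. Scrublet's own threshold was to be used but marked almost no barcode in some libraries and over 30% in others, so removing the highest 4% took its place. Cells were clustered without the 9 members (scanpy 1.11.5, 2000 variable genes, 30 components, 15 neighbours, Leiden resolution 1.0, 31 clusters), clusters were named from marker lists, and UMI counts were summed per library and class and tested with edgeR in 1 fit of 10 libraries. For shares over all genes in thinned cells, the UMIs left after the members and muscle genes had been drawn were drawn from each cell's other genes. CPM values are TMM-scaled and are not per length, so genes are not compared by level. Total depths are given with the results, and samples of a group differed by more than counting noise (chi-square over degrees of freedom 10.001 to 93.5). On simulated data the tests recovered 57.6 to 73.6% of 2-fold and 90.1 to 96.3% of 4-fold changed genes over the 8 mutant-control comparisons. Members are all named; companions are the 3 with the lowest adjusted p among those called, and for likeness the 3 genes with the highest r. The members and lists were chosen with earlier results of these data known. Alternatives tried were DESeq2 1.42.0, RLE size factors, no filter on low counts, a replicate block, 1 fit of all P2 libraries, Leiden resolution 0.5, doublets kept, no thinning and 5 muscle genes. After seeing the data, Scrublet's own threshold was moved from the main setting to the alternatives, and a minimum of 3000 UMIs was added.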

Additional observations from a re-analysis of the deposited data

Results flagged for a closer look

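The change of Meis1 differed between the deletions by a test of the difference itself in all kept P7 cells. Its log2 change was -0.35 in Insm1 mutants and -0.78 in Tead1/2 mutants, a difference of -0.43 (SE 0.10, adjusted p = 0.0458). The call was lost in most fits that left out a library, as given above. Skeletal muscle-like cells made up 12.4 to 14.3% of cells in Insm1 mutants and 20.8 to 28.1% in Tead1/2 mutants. The part of this makeup in the difference was not tested. Within progenitor-like cells the same difference was -0.21 (SE 0.11, adjusted p = 0.515), and within neuron-like cells -0.12 (SE 0.10, adjusted p = 0.789). In the CPM of the 9 members at P2, checked in each of the 3 groups of 4 libraries (27 in all), no library lay far from the others, where chance gives about 1 in 20. This covers the members alone and not the muscle gene sum, in which Tead1/2 mutant 4 stood apart.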

How the results depend on the processing

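With 1 library left out at a time, 471 of 535 log2 changes of members kept direction and side of the threshold, 40 lost the call, 7 gained it and 17 turned. Over the other settings these were 501, 20, 28 and 23 of 572. The directions of all 9 members in all kept P7 cells turned under no setting tried. Counts of members called are given with the share of all genes called in the same fit. At P2 for Insm1 the count was 1 as reported (0.689%), 3 with DESeq2 (1.59%), 2 without the filter (0.539%), 0 with RLE size factors (0.684%) and 0 to 1 with a library left out (0.323 to 0.667%). For Tead1/2 at P2, 0 as reported (0%), it was 1 without the filter (3.14%) and 0 to 1 with a library left out (0 to 3.19%). For the difference in all kept P7 cells, 1 as reported (3.34%), it was 4 with DESeq2 (8.72%), 2 with RLE (3.49%), 4 without the filter (3.15%) and 0 to 1 with a library left out (0.393 to 4.93%). In progenitor-like cells, 3 as reported in each allele (19.4% and 22%), it was 1 for Insm1 with Scrublet's own threshold (14.8%) and 5 for Tead1/2 without the filter (12.3%), with ranges of 2 to 3 (12.3 to 18.7%) and 1 to 4 (13.9 to 25.03%). In neuron-like cells, 3 for Insm1 and 4 for Tead1/2 (25.4% and 27.7%), it was 5 for Insm1 without the filter (13.5%) and 1 for Tead1/2 with Scrublet's own threshold (11.1%), with ranges of 1 to 2 (15.3 to 21.8%) and 1 to 6 (17.3 to 27.6%). Without a filter on low counts the log2 changes that turned were Meis1 0.0024 (Tead1/2, P2 tissue), Zic4 -0.014 (Insm1, neuron-like cells). With doublets kept the log2 changes that turned were Zic1 0.026 (Tead1/2, progenitor-like cells), Atoh1 1.97, Zic1 -0.34, Zic2 -0.13, Zic4 -0.17 (Insm1, neuron-like cells), Atoh1 0.83, Zic1 -0.20, Zic2 -0.13 (Tead1/2, neuron-like cells). At Leiden resolution 0.5 the log2 changes that turned were Zic5 -0.0067 (Tead1/2, progenitor-like cells). With Scrublet's own threshold the log2 changes that turned were Atoh1 1.40, Zic1 -0.15, Zic4 -0.17 (Insm1, neuron-like cells), Atoh1 0.19, Zic1 -0.094 (Tead1/2, neuron-like cells). With a minimum of 3000 UMIs the log2 changes that turned were Atoh1 2.38, Zic1 -0.34, Zic2 -0.092, Zic4 -0.15 (Insm1, neuron-like cells), Atoh1 1.31, Zic1 -0.19, Zic2 -0.10 (Tead1/2, neuron-like cells). Leaving out 1 library at a time turned only these, given with their ranges: Zic1 -0.075 to 0.0031 (Tead1/2, P2 tissue), Meis1 -0.033 to 0.033 (Tead1/2, P2 tissue), Meis1 -0.00054 to 0.086 (Insm1, progenitor-like cells), Zic1 -0.12 to 0.070 (Tead1/2, progenitor-like cells), Zic5 -0.021 to 0.092 (Tead1/2, progenitor-like cells), Zic1 -0.042 to 0.13 (Insm1, neuron-like cells), Zic4 -0.065 to 0.10 (Insm1, neuron-like cells), Meis1 -0.063 to 0.037 (Insm1, neuron-like cells), Barhl1 -0.14 to 0.10 (Tead1/2, neuron-like cells), Zic1 -0.028 to 0.25 (Tead1/2, neuron-like cells), Zic2 -0.018 to 0.22 (Tead1/2, neuron-like cells). The cause was not tested. With a replicate block the P2 counts were 0 for Insm1 and 1 (Barhl2) for Tead1/2, in fits that called 0.327% and 1.17% of all genes, and with a replicate block for dissection in all kept P7 cells the difference gave 2 (3.36%). Same-numbered samples deviated together by correlations of -0.131 to 0.227 at P2 and -0.125 to 0.0262 at P7. Samples with unlike numbers were not set beside them, so whether the numbers pair the samples was not tested. At P7, library 1 of each group shares the dissection of all lobules. No test was run within the all-lobule libraries, of which there was 1 per group. For muscle transcripts, 6 of 9 members exceeded the non-lineage share in the main setting, with at least 5 muscle genes and with doublets kept, 6 to 8 with a library left out and 9 without thinning. The count asks that all mutant libraries kept exceed that share, so leaving a library out could only hold or raise it. The share over all genes was taken in the reported setting only. Depth limits the shares of cells with a UMI: 242 to 389 cells per group fell under 2000 UMIs and were left out.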
